A study of Mus musculus with 4 samples.

Results

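Mediator and Integrator are multi-subunit partners of RNA polymerase II, and the levels of their messenger RNAs are described here in mouse oocytes with and without a knockdown of Ell3. Members were the genes of the deposited count table with a symbol made of Med or Ints and a number (Med12l and Med13l included), plus Ccnc, Cdk8 and Cdk19. This rule found 47 of 53677 symbols, 33 of Mediator and 14 of Integrator, and all 47 passed the filter on low counts. The libraries came from oocytes at the germinal vesicle (GV) stage, arrested in meiotic prophase, collected 48 h after an injection of 7.5 IU of PMSG, a hormone with FSH-like action, into the females. The control group (Ctrl) and the knockdown group (Ell3 KD) each had 2 libraries, with 5 oocytes pooled per library, and polyadenylated RNA was amplified by a Smart-seq2 protocol. The knockdown method, the treatment of the controls, and the females' strain and age are not stated in the sources used here. The labels do not say whether libraries within a group are from separate animals, so p-values here measure only how these 4 libraries vary, and that variation may be technical.

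Mediator bridges transcription factors bound to DNA and RNA polymerase II at promoters. Its head and middle modules contact the polymerase, the tail receives activators, Med14 is the scaffold that runs through the core, and a kinase module of Cdk8 or Cdk19, cyclin C, Med12 and Med13 docks reversibly. Integrator cleaves nascent transcripts with an endonuclease related to the one that makes the 3' ends of mRNAs, and it carries protein phosphatase 2A (PP2A). It is known for trimming small nuclear RNAs (snRNAs) and for ending transcription of paused polymerases near promoters. The Mediator subunit Med26 is a known docking site for elongation complexes that contain ELL family proteins. Fully grown GV oocytes transcribe little and hold a large store of mRNA made during growth.

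Total counts lay between 45131278 and 48669267 in Ctrl and between 65722415 and 89632815 in Ell3 KD, so depth and group cannot be told apart. Levels are given as CPM (counts scaled to equal library totals, with TMM factors), so each value is relative to the other genes of its library. The targeted gene Ell3 lay at 8.12 and 9.78 CPM in Ctrl and 2.88 and 2.80 CPM in Ell3 KD (log2 fold change -1.66 ± 0.14, edgeR adjusted p = 6.04e-10; ± is the SE of a log2 fold change throughout). Serinc4, a gene on the same strand, overlaps 65.6% of the exonic bases of Ell3. Serinc4 had between 5 and 11 counts, and how reads in the shared part were counted is not known. The 10 oocyte markers summed to between 20502 and 21357 CPM, with 2 called higher and 4 lower. The 10 cumulus and granulosa markers summed to between 53.3 and 56.1 CPM in Ctrl and between 49.0 and 51.4 CPM in Ell3 KD. Of these, 6 were tested, with 1 called higher and 1 lower. Most of the sum came from Nr5a2 (26.6 and 26.2 CPM in Ctrl and 22.3 and 22.5 CPM in Ell3 KD) and Cyp19a1. Cyp19a1 overlapped between the groups (18.7 and 17.2 CPM in Ctrl and 16.2 and 17.9 CPM in Ell3 KD). The 7 theca and stroma markers summed to 1.79 and 2.17 CPM in Ctrl and 2.57 and 2.71 CPM in Ell3 KD. Of these, 3 were tested and Dcn was called higher (0.766 and 0.952 CPM in Ctrl and 1.77 and 1.99 CPM in Ell3 KD), while Col1a2 was at 0. Star went the other way (0.744 and 0.871 CPM in Ctrl and 0.451 and 0.572 CPM in Ell3 KD), and no marker of this list was called lower. The 7 blood markers summed to 2.76 and 3.34 CPM in Ctrl and 1.43 and 1.25 CPM in Ell3 KD. Both that were tested, Cd68 (2.43 and 2.86 CPM in Ctrl and 1.23 and 1.13 CPM in Ell3 KD) and Alas2, were called lower, and all 4 globin genes were at 0. The sums of the theca and stroma list and of the blood list thus differed between the groups at low levels. The part of any of these markers in the results was not tested. In such bulk samples, fewer cells of a type and less RNA per cell cannot be told apart.

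Mediator genes were called higher more often than lower, and Integrator genes lower more often than higher. Of the 33 Mediator genes, 13 rose in Ell3 KD, 7 fell and 13 did not pass the test, with a median log2 fold change of 0.05. Of the 14 Integrator genes, 1 rose, 7 fell and 6 did not pass, with a median of -0.11. A gene was called at an edgeR adjusted p under 0.05 over all 17879 genes tested, of which 21.1% were called higher and 21.8% lower, with a median of -0.0024. Among the 9703 genes at a mean of 5 CPM or more, the class that holds 44 of the 47 members, 27.2% were called higher and 25.3% lower. The 39.4% of Mediator genes called higher stood above these shares, and the 21.2% called lower stood close to them. For Integrator, the 7.14% called higher stood below these shares and the 7 of 14 called lower above them, and a difference of either complex from all genes was not tested. Without Ell3 KD replicate 1, 3 of the 14 Integrator genes were called lower. That fit called 2922 of all 18409 genes tested lower, against 3906 of 17879 with all libraries. For 14 of the 19 members that were not called, both ends of the 95% interval lay within a 1.2-fold change.

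**Figure D1:**
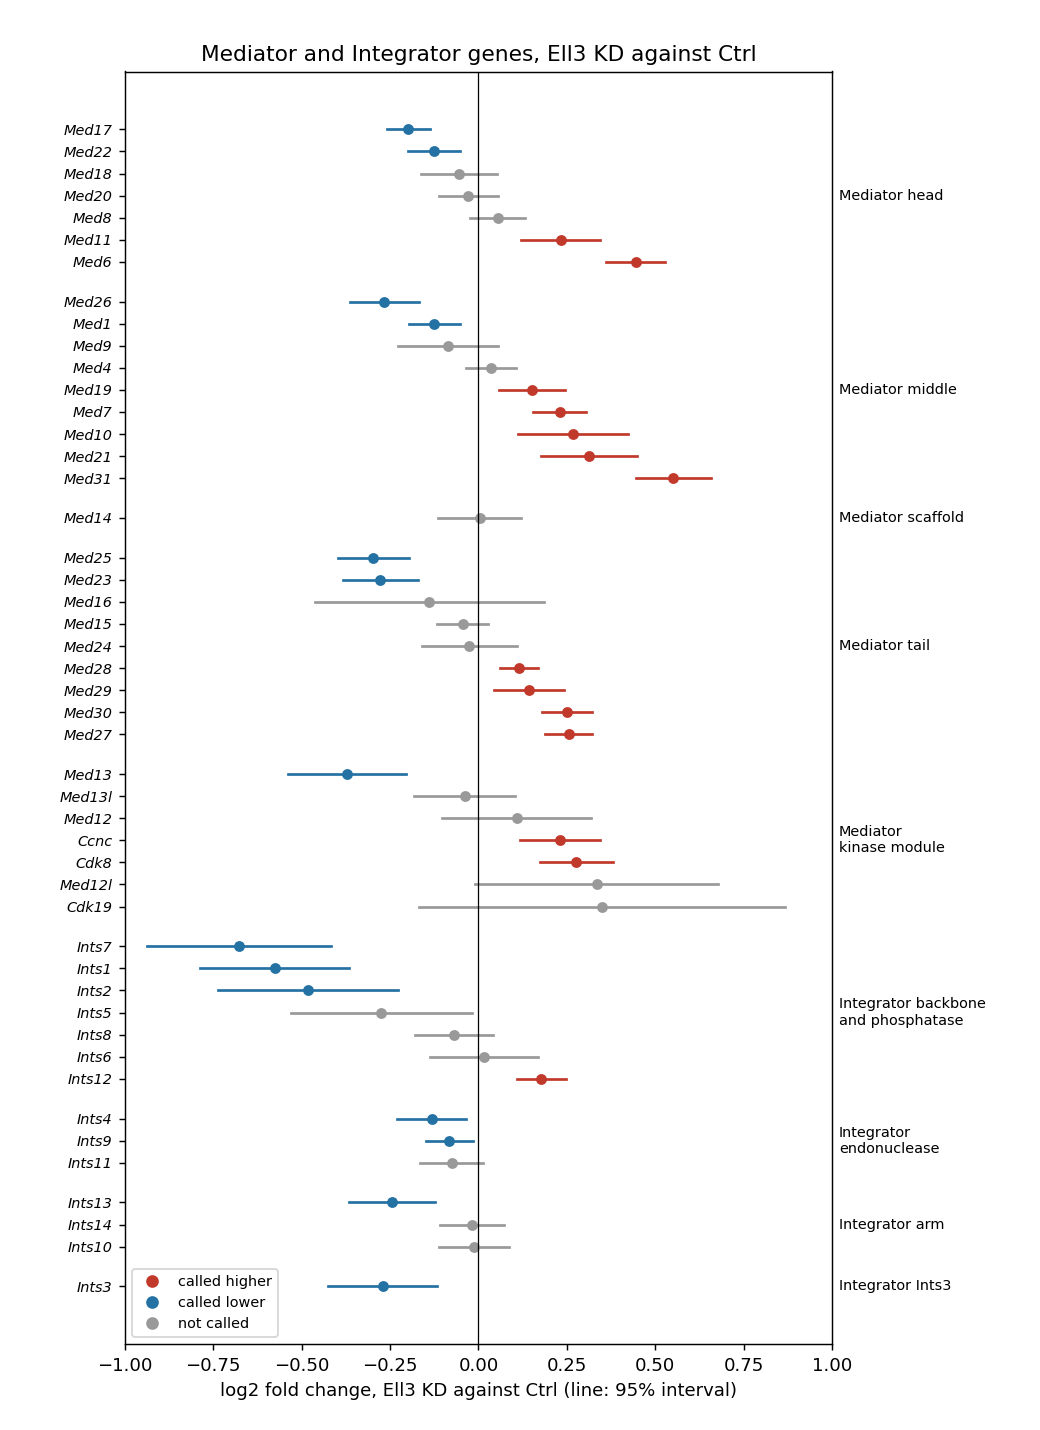
Log2 fold change of each of the 47 genes in Ell3 KD against Ctrl (x axis) by module (y axis), with points for estimates, lines for 95% intervals and colour for the call at an edgeR adjusted p under 0.05. The estimates run from -0.68 for Ints7 to 0.55 for Med31, and Integrator genes lie mostly left of 0.

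The largest rises were those of Med31 and Med6 and the largest falls those of Ints7 and Ints1. Med31 encodes a small subunit of the Mediator middle module that is conserved from yeast. It lay at 35.7 and 35.9 CPM in Ctrl and 52.6 and 52.3 CPM in Ell3 KD, 46.6% higher (log2 fold change 0.55 ± 0.05, edgeR adjusted p = 4.41e-09). Med6 encodes a head subunit at the face of Mediator that contacts the polymerase. It lay at 94.2 and 100.2 CPM in Ctrl and 130.2 and 135 CPM in Ell3 KD, 36.3% higher (log2 fold change 0.45 ± 0.04, edgeR adjusted p = 2.81e-09). Ints7 and Ints1 encode backbone subunits on which the rest of Integrator is built. Ints7 lay at 7.55 and 7.37 CPM in Ctrl and 4.54 and 4.81 CPM in Ell3 KD, 37.4% lower (log2 fold change -0.68 ± 0.13, edgeR adjusted p = 1.09e-04). Ints1 lay at 11 and 12.5 CPM in Ctrl and 7.75 and 7.99 CPM in Ell3 KD, 32.8% lower (log2 fold change -0.58 ± 0.10, edgeR adjusted p = 6.49e-05). For all 4 genes both Ell3 KD libraries stood on one side of both Ctrl libraries. These genes were picked for their large changes, so this separation adds no support of its own. With 2 libraries against 2, no two-sided exact permutation test can give a p below 0.333. The groups were also apart for genes that were not called, such as Ints5 and Med12l. Here and below, groups that do not overlap are therefore described and not tested. Med31, Med6, Ints7 and Ints1 were also the only 4 of the 47 members called in a test against a change of at most 1.2-fold (edgeR glmTreat adjusted p = 3.37e-05 for Med31, 3.49e-04 for Med6, 0.00420 for Ints7 and 0.00657 for Ints1). The same test called 1240 of all 17879 genes higher and 1511 lower. On GRCm38, the assembly that mm10 names, Med31 lies at chr11:72211724-72215592 on the minus strand, Med6 at chr12:81573557-81595008 on the minus strand, Ints7 at chr1:191575636-191623688 on the plus strand and Ints1 at chr5:139751282-139775674 on the minus strand. Of the exon length of Med31, 26.3% is shared with 4930563E22Rik on the opposite strand, which had 0 counts in both Ctrl libraries and 9 and 4 in Ell3 KD. Med31 had between 1631 and 4666 counts, and since the strand setting of the counting is not known, reads of such a pair cannot be told apart.

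**Figure D2:**
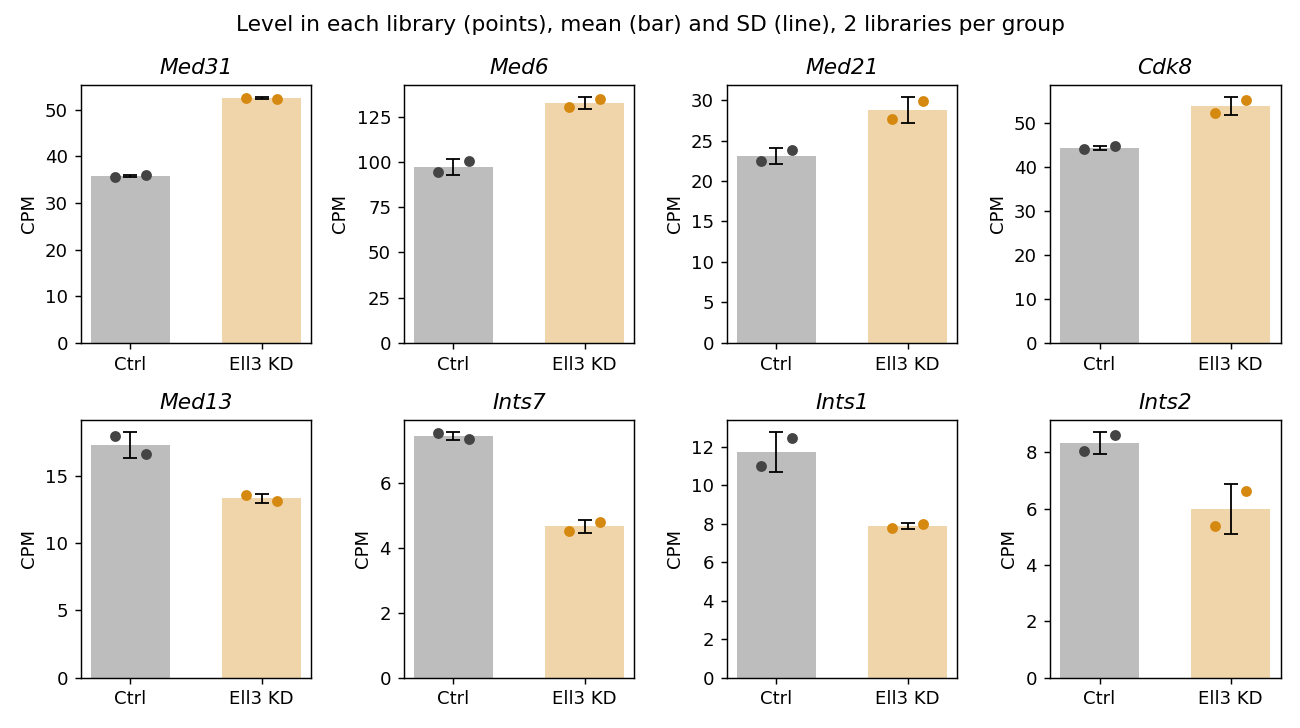
Level in CPM (y axis, from 0) of 8 genes in the 2 Ctrl and 2 Ell3 KD libraries (points), with the group mean as a bar and the SD (n = 2) as a line. Both Ell3 KD points lie above both Ctrl points for Med31, Med6, Med21 and Cdk8 and below them for Med13, Ints7, Ints1 and Ints2. This separation of 2 libraries from 2 is described and not tested.

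The promoters of these 4 genes are shown because they are the members with the largest changes in each direction. Each run holds 300 bases, 250 before and 50 after the start of the transcript, read 5' to 3' on the gene's strand from RefSeq (GRCm38.p6). Capitals mark matches, on either strand, to 6 motifs. The letters searched for ETS factors were CCGGAAG. Those for NRF1 were GCATGCGC and those for the cyclic AMP response element TGACGTCA. The GC box was searched as GGGCGG. The other two were the CCAAT box, named by its letters, and the TATA box, searched as TATAAA. Letters that fit more than one motif are marked once.
Med31, chr11:72215543-72215842, minus strand: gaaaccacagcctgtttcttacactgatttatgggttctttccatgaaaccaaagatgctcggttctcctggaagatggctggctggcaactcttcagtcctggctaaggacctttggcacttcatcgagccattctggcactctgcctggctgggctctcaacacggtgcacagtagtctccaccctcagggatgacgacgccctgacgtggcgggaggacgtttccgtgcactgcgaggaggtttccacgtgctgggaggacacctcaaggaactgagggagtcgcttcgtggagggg
Med6, chr12:81594959-81595258, minus strand: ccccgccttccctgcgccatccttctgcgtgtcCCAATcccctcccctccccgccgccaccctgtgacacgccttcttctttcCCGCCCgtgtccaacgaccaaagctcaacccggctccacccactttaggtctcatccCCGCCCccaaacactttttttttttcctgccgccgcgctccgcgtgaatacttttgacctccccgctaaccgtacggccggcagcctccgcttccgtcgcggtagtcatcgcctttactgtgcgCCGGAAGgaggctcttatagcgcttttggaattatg
Ints7, chr1:191575386-191575685, plus strand: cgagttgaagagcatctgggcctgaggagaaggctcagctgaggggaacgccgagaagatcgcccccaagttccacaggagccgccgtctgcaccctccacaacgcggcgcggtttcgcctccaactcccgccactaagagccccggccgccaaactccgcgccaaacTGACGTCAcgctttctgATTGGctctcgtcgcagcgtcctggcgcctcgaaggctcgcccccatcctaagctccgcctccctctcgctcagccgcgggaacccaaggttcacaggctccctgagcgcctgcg
Ints1, chr5:139775629-139775928, minus strand: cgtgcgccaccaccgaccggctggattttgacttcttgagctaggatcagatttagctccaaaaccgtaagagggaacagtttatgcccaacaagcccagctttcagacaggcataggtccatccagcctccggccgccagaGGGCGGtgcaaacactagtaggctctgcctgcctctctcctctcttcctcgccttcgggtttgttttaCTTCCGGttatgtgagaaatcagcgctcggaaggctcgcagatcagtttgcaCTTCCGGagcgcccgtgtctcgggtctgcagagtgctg
None of the 6 motifs is in the Med31 window. The Med6 window holds 2 GC boxes, 1 CCAAT and 1 ETS match, the Ints7 window 1 CCAAT and 1 response element, and the Ints1 window 2 ETS matches and 1 GC box. Of the 47 members, 38 had a window, 43 windows in all. The GC box was in 28 of them (65.1%, against 35.7% of all 32851 windows in the table), CCAAT in 21 (48.8% against 37.4%) and the ETS letters in 11 (25.6% against 8.86%). The NRF1 letters were in 6 (14.0% against 2.71%), the response element in 2 (4.65% against 1.79%), and TATAAA in 3 (6.98% against 13.6%). These 3 were the windows of Med16, Med28 and a start of Med7. Median GC content was 54% in windows of members called higher, 63% in those called lower and 61% in those not called. Over all windows it was 52.7%, and its part in the motif shares was not tested. A match of letters is a description of the window and does not show that a factor binds there.

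Levels within each complex were far from even. Per kb of the longest annotated transcript, the mean over all 4 libraries ran from 0.291 for Cdk19 to 348 CPM per kb for Med28. The tail genes Med28, Med30 and Med27 (348, 319.7 and 178 CPM per kb) led the list, followed by the head genes Med17 (113), Med6 (108) and Med8 (103). Med28 and Med30 stood at the 99.0 and 98.9 percentile of the genes tested that had a single gene model. At the low end stood Cdk19 and Med12l (0.309 CPM per kb), then Ints7 (1.13), Ints2 (1.21), Med12 (1.33), Ints1 (1.38) and Med13 (1.45). The scaffold gene Med14 lay at 4.79 CPM per kb, below every head gene (lowest 16.9, Med20). The median over Mediator genes, taken in each library, was 21.4 and 22.0 CPM per kb in Ctrl and 18.6 and 17.4 in Ell3 KD. It was the value of Med25 in replicate 1 of both groups, of Med1 in Ctrl replicate 2 and of Med21 in Ell3 KD replicate 2. This median thus does not follow the same gene, and the median log2 fold change of the Mediator genes was 0.05. For Integrator, the median over genes in each library was 9.63 and 9.60 CPM per kb in Ctrl and 8.73 and 8.79 in Ell3 KD. Ints9 (69.0) and Ints12 (52.8) were highest. Which transcript an oocyte uses is not known from gene counts. With all annotated exons of a gene as its length, chosen after the data were seen, Med28 and Med30 still led (317 and 272), while Cdk8 went from 12.6 to 5.00 and Med15 from 52.4 to 15.6 CPM per kb. All 47 genes together took between 0.553% and 0.565% of the counts of a library.

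**Figure D3:**
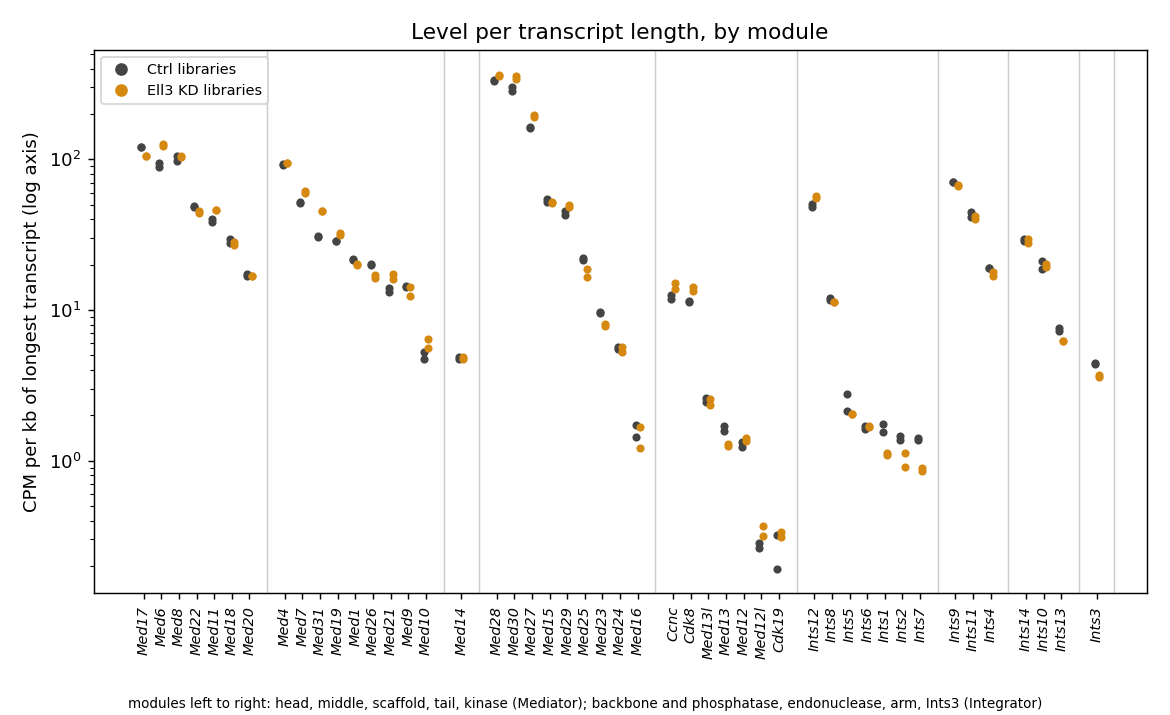
Level in CPM per kb of the longest annotated transcript (log y axis) of the 47 genes, grouped by module along the x axis and ordered by level within it, with 1 point per library. Med28, Med30 and Med27 stand highest, and Med12l and Cdk19 stand below 1 CPM per kb in all 4 libraries.

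In the head module, 2 of 7 genes rose and 2 fell (28.6% each), with a median log2 fold change of -0.03. These shares are close to those of genes at 5 CPM or more, of which 27.2% rose and 25.3% fell. Besides Med6, Med11 rose, a small head subunit that pairs with Med22 (log2 fold change 0.23 ± 0.05). Its partner Med22 fell by 0.13 on the log2 scale, a call that was lost without Ell3 KD replicate 2 (edgeR adjusted p = 0.142). Med17, the central subunit of the head, had the highest mean level per length of the head genes over all 4 libraries. In Ell3 KD, Med6 stood above it (123.0 and 127.2 against 104.9 and 105.5 CPM per kb), as did Med8 in replicate 2 (105.7). Med17 lay at 478 and 479 CPM in Ctrl and 416 and 418 CPM in Ell3 KD, 12.8% lower (log2 fold change -0.20 ± 0.03, edgeR adjusted p = 7.42e-06). The replicates of Med17 differed by less than 3 CPM in either group, and the groups did not overlap. Med20, the head gene with the lowest level per length, lay at 98.9 and 95.6 CPM in Ctrl and 95.8 and 94.8 CPM in Ell3 KD (95% interval -0.11 to 0.05) and the groups overlapped. Med8 and Med18 were not called either, with log2 fold changes of 0.05 and -0.06, but Med8 was called higher without Ctrl replicate 2 (edgeR adjusted p = 0.0324).

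The middle module had 5 rises and 2 falls among 9 genes, with a median log2 fold change of 0.15. These are 55.6% and 22.2%, beside 27.2% and 25.3% of genes at 5 CPM or more, a difference that was not tested. Besides Med31, the rises were those of Med21, Med10, Med7 and Med19. Med21 and Med7 encode the partners of the hinge on which the middle module bends. Med21 lay at 22.4 and 23.8 CPM in Ctrl and 27.6 and 29.9 CPM in Ell3 KD, 24.3% higher (log2 fold change 0.31 ± 0.07, edgeR adjusted p = 4.39e-04). Med7 rose by 0.23 ± 0.04 and Med19 by 0.15 ± 0.05 on the log2 scale, and Med19 was not called without Ell3 KD replicate 1 (edgeR adjusted p = 0.104) or with library totals alone (edgeR adjusted p = 0.0504). Med10, the middle gene with the lowest level per length, lay at 19.8 and 22.2 CPM in Ctrl and 27.1 and 23.3 CPM in Ell3 KD (log2 fold change 0.27 ± 0.08, edgeR adjusted p = 0.00589). The call of Med10 was lost without Ell3 KD replicate 1 (edgeR adjusted p = 0.206) and without Ctrl replicate 1 (edgeR adjusted p = 0.0638). Of its exon length, 92.8% is shared with Gm26819 on the opposite strand, which had between 7 and 21 counts. Med7 shares 21.2% of its exon length with 2310031A07Rik, which had at most 1 count in a library. Med26, the docking subunit for ELL-containing complexes, lay at 59.5 and 60.8 CPM in Ctrl and 50.8 and 49.1 CPM in Ell3 KD, 16.9% lower (log2 fold change -0.27 ± 0.05, edgeR adjusted p = 7.13e-05). Its 4 values left a clear gap between the groups. Med1, the subunit known for binding nuclear receptors, fell by 0.12 on the log2 scale and was not called without Ell3 KD replicate 2 (edgeR adjusted p = 0.0796). Med4, the most abundant middle mRNA per length, lay at 194 and 195 CPM in Ctrl and 199 and 199 CPM in Ell3 KD and did not pass the test (95% interval -0.03 to 0.11), nor did Med9 (95% interval -0.23 to 0.05). The scaffold gene Med14 lay at 33.7 and 32.9 CPM in Ctrl and 33.7 and 33.0 CPM in Ell3 KD (95% interval -0.11 to 0.12), and its groups overlapped.

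In the tail, 4 of 9 genes rose and 2 fell, with a median log2 fold change of -0.03. These are 44.4% and 22.2%, beside 27.2% and 25.3% of genes at 5 CPM or more, a difference that was not tested. Over all genes tested, 21.1% rose and 21.8% fell. The 4 that rose, Med27, Med28, Med29 and Med30, encode the upper tail next to the head and middle. Med27 lay at 272 and 275 CPM in Ctrl and 331 and 321 CPM in Ell3 KD, 19.4% higher (log2 fold change 0.26 ± 0.03, edgeR adjusted p = 5.32e-07). Med28 lay at 1512 and 1534 CPM in Ctrl and 1660 and 1639 CPM in Ell3 KD, 8.34% higher (log2 fold change 0.12 ± 0.03, edgeR adjusted p = 8.52e-04). For both genes the Ell3 KD libraries lay above the Ctrl libraries. Med30 rose by 0.25 ± 0.03 and Med29 by 0.14 ± 0.05 on the log2 scale, and Med29 was not called without Ell3 KD replicate 1 (edgeR adjusted p = 0.166) or without Ctrl replicate 2 (edgeR adjusted p = 0.196), nor with DESeq2 (adjusted p = 0.0660) or library totals alone (edgeR adjusted p = 0.0833). The pair that fell encodes activator-binding subunits. Med25, which is bound by several activators including ETV factors, lay at 79.0 and 81.4 CPM in Ctrl and 68.8 and 61.6 CPM in Ell3 KD, 18.7% lower (log2 fold change -0.30 ± 0.05, edgeR adjusted p = 2.35e-05). Med23, a target of the ETS factor Elk1, lay at 48.6 and 49.4 CPM in Ctrl and 41.1 and 39.7 CPM in Ell3 KD, 17.5% lower (log2 fold change -0.28 ± 0.05, edgeR adjusted p = 1.03e-04). Neither gene overlapped between the groups. Med15, a subunit bound by SREBP factors of lipid metabolism, and Med24 did not pass the test, with log2 fold changes of -0.04 and -0.03. Med16, the tail gene with the lowest level per length, lay at 5.49 and 4.60 CPM in Ctrl and 3.88 and 5.33 CPM in Ell3 KD, and its interval was wide (-0.46 to 0.18).

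The kinase module had 2 rises and 1 fall among 7 genes, with a median log2 fold change of 0.23. The 28.6% that rose stand beside 27.2% of genes at 5 CPM or more and 21.1% of all genes tested. The 14.3% that fell stand below the 25.3% and 21.8% of the same classes, and neither difference was tested. Cdk19 and Med12l, under 5 CPM in every library, are outside the first class. Both rises were those of the kinase and its cyclin. Cdk8 lay at 44.1 and 44.8 CPM in Ctrl and 52.4 and 55.4 CPM in Ell3 KD, 21.3% higher (log2 fold change 0.28 ± 0.05, edgeR adjusted p = 8.65e-05). Ccnc, the gene of cyclin C, lay at 41.4 and 44.0 CPM in Ctrl and 47.9 and 52.5 CPM in Ell3 KD, 17.6% higher (log2 fold change 0.23 ± 0.06, edgeR adjusted p = 0.00137), a call that was lost without Ell3 KD replicate 2 (edgeR adjusted p = 0.0544). In both genes the Ell3 KD libraries stood above the Ctrl libraries. Med13, the subunit that ties the module to the Mediator core, lay at 18 and 16.6 CPM in Ctrl and 13.6 and 13.1 CPM in Ell3 KD, 22.8% lower (log2 fold change -0.37 ± 0.08, edgeR adjusted p = 6.06e-04). Its paralog Med13l lay at 22.9 and 24.1 CPM in Ctrl and 23.9 and 21.8 CPM in Ell3 KD and its groups overlapped (95% interval -0.18 to 0.10). Med12, which activates the kinase, lay at 9.21 and 8.61 CPM in Ctrl and 9.76 and 9.42 CPM in Ell3 KD (95% interval -0.10 to 0.32) and did not pass the test. Its paralog Med12l lay at 3.13 and 2.90 CPM in Ctrl and 4.07 and 3.49 CPM in Ell3 KD (95% interval -0.01 to 0.68) and did not pass either, though its groups did not overlap. Cdk19, the paralog of Cdk8, lay at 1.86 and 1.11 CPM in Ctrl and 1.82 and 1.96 CPM in Ell3 KD, from counts of 85 and 55 in Ctrl and 161 and 127 in Ell3 KD. Ctrl replicate 2 was low, and without Ctrl replicate 1 Cdk19 was called higher (log2 fold change 0.76, edgeR adjusted p = 0.0329). Without Ctrl replicate 2 its log2 fold change was 0.02 (edgeR adjusted p = 0.969), against 0.35 with all libraries (95% interval -0.17 to 0.87).

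Cdk8 and Med12 stood above their paralogs per length. Per kb of transcript, Cdk8 made up 97.2% and 98.4% of the Cdk8 and Cdk19 level in Ctrl and 97.7% and 97.7% in Ell3 KD. This share overlapped between the groups. Med12 made up 82.4% and 82.5% of its pair in Ctrl and 79.2% and 81.0% in Ell3 KD. Med13 made up 41.0% and 37.8% of the Med13 and Med13l level in Ctrl and 33.4% and 34.7% in Ell3 KD. When all annotated exons were taken as the length, as above, Med13 made up 52.8% and 49.5% in the Ctrl libraries against 44.8% and 46.2% in the Ell3 KD libraries, so which of these paralogs stood higher depends on the length used. Under the same choice, Cdk8 still made up at least 93.4% and Med12 at least 79.9% of its pair in every library. No two-sided exact permutation test of such a share, with 2 libraries against 2, can give a p below 0.333, so these shares are described and not tested. How reads that fit both paralogs were counted is not known.

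Each part of Integrator held at least 1 gene called lower, but outside the backbone these calls were few. They were 2 of the 3 endonuclease genes, 1 of the 3 arm genes and Ints3, which is a part of its own. Both endonuclease calls were lost in several fits, that of Ints4 in 5 and that of Ints9 in 9 of 13 alternatives. Of the 7 genes of the backbone and the phosphatase-binding part, 3 fell and 1 rose, with a median log2 fold change of -0.27. These are 42.9% and 14.3%, beside 25.3% and 27.2% of genes at 5 CPM or more, a difference that was not tested. The 3 that fell were the backbone genes Ints7, Ints1 and Ints2. As means over all libraries, they had the lowest levels per length of the 14 Integrator genes. Ints2 lay at 8.05 and 8.61 CPM in Ctrl and 5.37 and 6.62 CPM in Ell3 KD, 28.0% lower (log2 fold change -0.48 ± 0.12, edgeR adjusted p = 0.00270). The Ell3 KD libraries of Ints2 differed from each other by more than the Ctrl libraries, and the call was lost without Ell3 KD replicate 1 (edgeR adjusted p = 0.0851). Ints12, a small subunit with a PHD finger, was the single Integrator gene that rose, at 262 and 272 CPM in Ctrl and 297 and 308 CPM in Ell3 KD, 13.2% higher (log2 fold change 0.18 ± 0.03, edgeR adjusted p = 1.22e-04). Ints6 and Ints8, which bind PP2A, were not called (95% interval -0.14 to 0.17 and -0.18 to 0.04). Ints6l, a paralog of Ints6 that the rule does not take, had 4 counts in Ctrl replicate 2 and 0 in the other libraries. Ints5 lay at 7.02 and 9.03 CPM in Ctrl and 6.65 and 6.65 CPM in Ell3 KD without overlap and was not called with all libraries (edgeR adjusted p = 0.0770), but was called lower without Ctrl replicate 1 (edgeR adjusted p = 0.00557) and with library totals as the only scaling (edgeR adjusted p = 0.0451).

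In the endonuclease module of Ints11, its inactive partner Ints9 and Ints4, the changes were small. Ints9 lay at 246 and 247 CPM in Ctrl and 234 and 232 CPM in Ell3 KD, 5.53% lower (log2 fold change -0.08 ± 0.03, edgeR adjusted p = 0.0447), and it was not called without any 1 of the 4 libraries (edgeR adjusted p between 0.0702 and 0.238). Ints4 lay at 61.6 and 61.4 CPM in Ctrl and 54.5 and 57.9 CPM in Ell3 KD (log2 fold change -0.13 ± 0.05, edgeR adjusted p = 0.0266), a call that was lost without Ell3 KD replicate 1 (edgeR adjusted p = 0.345) and without Ctrl replicate 1 (edgeR adjusted p = 0.0574) and with DESeq2 (adjusted p = 0.121). Ints11, the catalytic subunit, lay at 106 and 98.5 CPM in Ctrl and 98.9 and 95.2 CPM in Ell3 KD, with groups that overlapped (95% interval -0.16 to 0.01), and was called lower without Ctrl replicate 2 (edgeR adjusted p = 0.0221) and with library totals as the only scaling (edgeR adjusted p = 0.0318). Its exons share 22.7% of their length with Pusl1 on the opposite strand, which had between 490 and 1016 counts. In the arm of Ints10, Ints13 and Ints14, Ints13 lay at 33.1 and 34.8 CPM in Ctrl and 28.6 and 28.8 CPM in Ell3 KD, 15.6% lower (log2 fold change -0.25 ± 0.06, edgeR adjusted p = 0.00147), and its groups did not overlap. Ints14, the most abundant arm mRNA per length, lay at 81.3 and 84.3 CPM in Ctrl and 79.2 and 84.6 CPM in Ell3 KD and overlapped between the groups, as did Ints10 (95% interval -0.11 to 0.09). Ints3, which Integrator shares with the SOSS complex of DNA repair, lay at 19.4 and 18.9 CPM in Ctrl and 15.7 and 16.1 CPM in Ell3 KD, 17.1% lower (log2 fold change -0.27 ± 0.08, edgeR adjusted p = 0.00486), and was not called without Ell3 KD replicate 1 (edgeR adjusted p = 0.0543).

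Longer transcripts tended to have lower log2 fold changes. The longest transcripts of the 47 genes ran from 902 bp (Med11) to 11006 bp (Med12l), and Spearman's rho between length and log2 fold change over them was -0.330, against -0.203 over the 9536 genes at 5 CPM or more with a single gene model and -0.128 over all 17308 such genes tested. It was -0.327 within Mediator and -0.156 within Integrator. With GC content in place of length, rho was -0.325 over the 47 genes, -0.346 within Mediator and -0.547 within Integrator, against -0.119 over genes at 5 CPM or more and -0.036 over all tested. Such correlations are across genes of the same 4 libraries, which are not independent replicates. Of the 14 Mediator genes under 3000 bp, 9 rose and 1 fell (Med26, at 2997 bp), and of the 19 at 3000 bp or more, 4 rose and 6 fell. Of the Integrator genes, the 2 under 3000 bp were not called, and of the 12 at or above it, 1 rose and 7 fell. Of all genes at 5 CPM or more, 1490 rose and 849 fell of 4267 under 3000 bp, and 1106 rose and 1575 fell of 5269 at or above it. With the trend on exon length and GC content of each library entered as offsets, 13 Mediator genes were called higher and 5 lower. Of the Integrator genes, 1 was called higher and 5 lower. Over all 17308 genes tested with the offsets, 4126 were called higher and 3336 lower, against 3770 and 3906 of 17879 without them. Under these offsets the log2 fold change was 0.54 for Med31, 0.37 for Med6, -0.62 for Ints7 and -0.52 for Ints1, so all 4 stayed called. Med1, Med22, Ints4 and Ints9 were no longer called under the offsets (edgeR adjusted p = 0.0872, 0.146, 0.171 and 0.278).

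**Figure D4:**
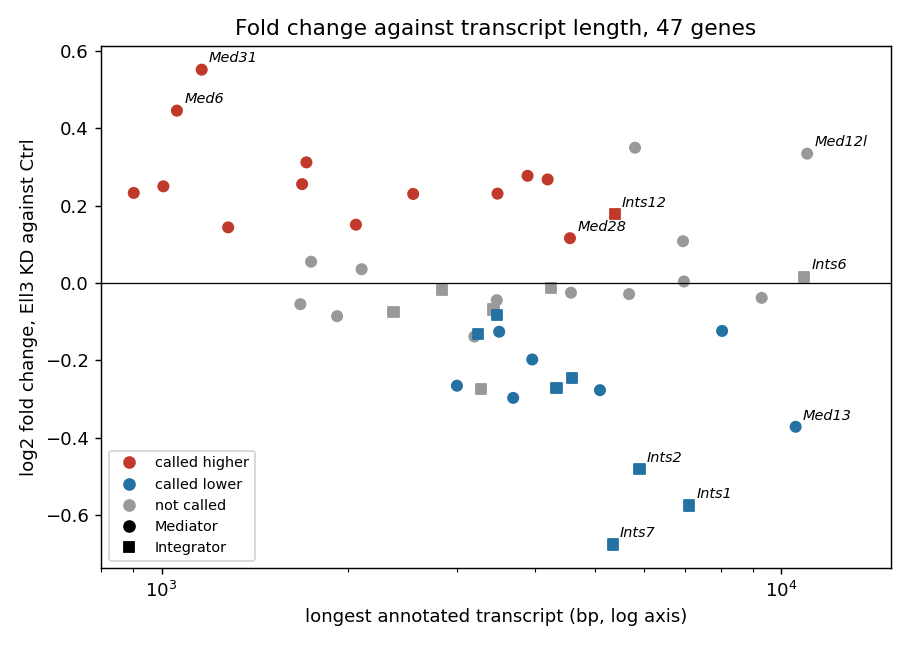
Log2 fold change in Ell3 KD against Ctrl (y axis) against the longest annotated transcript (log x axis, bp) of the 47 genes, with circles for Mediator, squares for Integrator and colour for the call. Rises lie mostly among the shorter transcripts, and Ints7, Ints1, Ints2 and Med13 lie at the lower right.

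Among genes whose products work with Integrator, the PP2A catalytic subunit gene Ppp2ca had the largest change of its list. It lay at 31.5 and 31.7 CPM in Ctrl and 58.3 and 63.8 CPM in Ell3 KD, with the groups far apart (log2 fold change 0.95 ± 0.05, edgeR adjusted p = 4.29e-13). Of its exon length, 41.3% is shared with 9430098F02Rik and Gm24157 on the opposite strand, both at 0 counts in all 4 libraries. PP2A also forms many complexes without Integrator. Of the 7 genes for the SOSS partners of Ints3 and the PP2A core, 1 rose and 3 fell, with a median log2 fold change of -0.10. These are 14.3% and 42.9% of a short list, beside 21.1% and 21.8% of all genes tested. Of genes at 5 CPM or more, the class of most of the 7, 27.2% rose and 25.3% fell. The PP2A scaffold gene Ppp2r1b lay at 21.4 and 23.4 CPM in Ctrl and 18.1 and 17.4 CPM in Ell3 KD (log2 fold change -0.34 ± 0.07, edgeR adjusted p = 5.51e-04), while its more abundant paralog Ppp2r1a did not pass the test (95% interval -0.04 to 0.10). Ppp2r1b shares 22.2% of its exon length with Sik2 on the opposite strand, which had between 71 and 196 counts. Nabp1, a single-stranded DNA-binding SOSS subunit, lay at 1.9 and 2.73 CPM in Ctrl and 1.44 and 1.30 CPM in Ell3 KD (log2 fold change -0.76 ± 0.24, edgeR adjusted p = 0.0122), and its call was lost without Ctrl replicate 2 (edgeR adjusted p = 0.192) and without Ell3 KD replicate 2 (edgeR adjusted p = 0.0632) and with DESeq2 (adjusted p = 0.0787). The other SOSS subunit gene that fell was Inip, by 0.10 on the log2 scale, a gene singled out after its value was seen. Its call was lost with DESeq2, without the filter, with the length and GC offsets and without 3 of the 4 libraries in turn (adjusted p between 0.0687 and 0.261).

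The machinery that cleaves and polyadenylates mRNA, which includes Cpsf3 and Cpsf2, the relatives of Ints11 and Ints9, had 3 rises and 6 falls among 21 genes (median log2 fold change -0.01). Those shares, 14.3% and 28.6%, can be read against the 27.2% and 25.3% of genes at 5 CPM or more. They can also be read against the 21.1% and 21.8% of all genes tested. Sympk, the scaffold symplekin, rose by 0.31 ± 0.05 on the log2 scale. Cstf2, an RNA-binding subunit of the cleavage stimulation factor, lay at 21.3 and 22.3 CPM in Ctrl and 15.8 and 14.9 CPM in Ell3 KD (log2 fold change -0.51 ± 0.07, edgeR adjusted p = 5.44e-06). Clp1, an RNA kinase of the cleavage factor, lay at 15.5 and 11.5 CPM in Ctrl and 8.20 and 8.75 CPM in Ell3 KD (log2 fold change -0.67 ± 0.11, edgeR adjusted p = 2.93e-05), and its Ctrl libraries were spread widely. Neither Cpsf3 nor Cpsf2 was called (95% interval -0.12 to 0.05 and -0.04 to 0.15).

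Of 21 genes for the transcription, export and assembly of snRNAs, whose 3' ends Integrator makes, 6 rose and 4 fell (median 0.01). These are 28.6% and 19.0%, beside 21.1% and 21.8% of all genes tested. Of genes at 5 CPM or more, the class of most of the 21, 27.2% rose and 25.3% fell. Zfp143, an activator of snRNA promoters, fell by 0.29 ± 0.05, and Strap, a partner of the SMN complex, by 0.24 ± 0.05. Smn1, the core gene of that assembly complex, rose by 0.17 ± 0.03 (each edgeR adjusted p at most 2.22e-04). Immediate early genes, which respond to signals within minutes and are known targets of both complexes, were mostly low. Of 20 listed, 14 passed the filter, 3 rose and 3 fell (median log2 fold change 0.17). Those shares, 21.4% and 21.4%, are close to the 21.1% and 21.8% of all genes tested. Dusp1, a MAP kinase phosphatase gene and the most abundant of them, lay at 149 and 147 CPM in Ctrl and 131 and 132 CPM in Ell3 KD (log2 fold change -0.17 ± 0.04, edgeR adjusted p = 4.64e-04). Junb lay at 0.984 and 0.446 CPM in Ctrl and 1.87 and 1.70 CPM in Ell3 KD (log2 fold change 1.33 ± 0.31, edgeR adjusted p = 9.90e-04), and Klf6 at 4.13 and 3.46 CPM in Ctrl and 2.44 and 2.15 CPM in Ell3 KD (log2 fold change -0.72 ± 0.18, edgeR adjusted p = 0.00200). The levels of Junb and Klf6 were under 5 CPM in every library, so their changes rest on far fewer reads than that of Dusp1. Egr1 did not pass the test (95% interval -0.04 to 0.35), and Fos, with at most 35 counts in a library, did not either (95% interval -0.96 to 1.34).

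**Figure D5:**
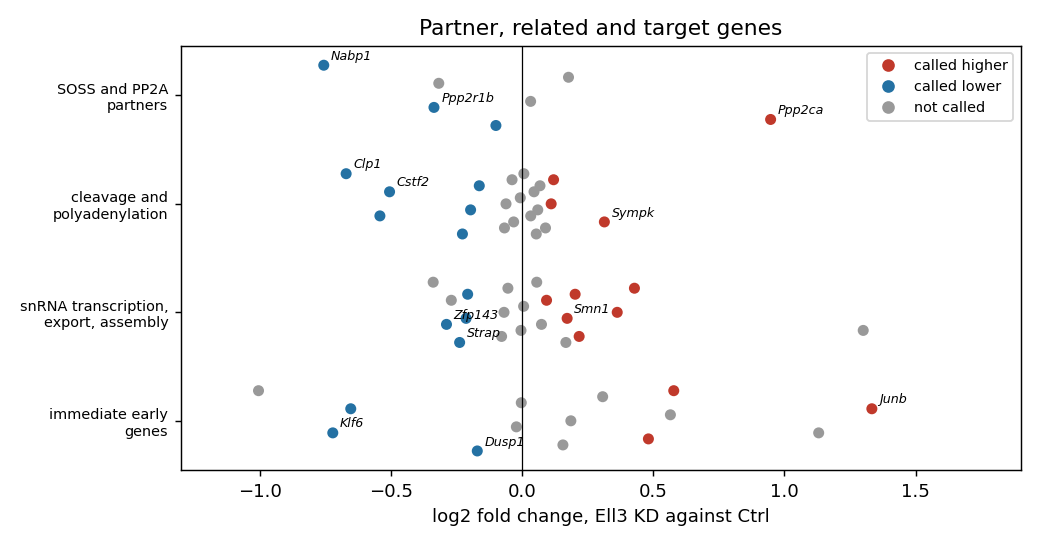
Log2 fold change in Ell3 KD against Ctrl (x axis) of the partner, related and target genes that passed the filter, 1 point per gene, by list (y axis), with colour for the call. Ppp2ca at 0.95 and Junb at 1.33 are the called genes farthest to the right, and points are shifted vertically only to separate them.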

How the data were processed

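The deposited values are raw counts per gene symbol, 1 file per library. The tools named are featureCounts, FastQC 0.11.5 and HISAT2 2.2.1.0, with the mm10 build, per the submitters' processing notes. Annotation, strand setting and the handling of multi-mapped reads are not stated in the sources used here. Library totals ran from 45131278 to 89632815 counts, the lowest member count was 55, and a count of 0 allows up to 0.0665 CPM in the shallowest library (3 counts, counting error only). Ell3 KD was compared with Ctrl in R 4.3.3 with edgeR 4.0.16 (filterByExpr, TMM, estimateDisp, glmQLFit, glmQLFTest, two-sided, no covariates) over 17879 genes, with Benjamini-Hochberg adjustment over all of them. The SE was computed as the absolute log2 fold change divided by the root of F, and 95% intervals took the t quantile at 26.3 degrees of freedom. Alternatives were DESeq2 1.42.0, limma-voom (limma 3.58.1), other scalings and filters, a replicate block, glmTreat, length and GC offsets, and leaving out each library. Known changes were simulated in 50 genes per fold size, all at a mean of 5 CPM or more, among 17368 genes tested. On these counts, edgeR recovered 60.0% of 1.2-fold and 100% of 1.5-fold changes. Far fewer genes were changed there than were called in the data. These recovery shares may therefore not carry over to the real fit, and they do not cover genes under 5 CPM. Lengths, GC and positions came from GENCODE M21 (GRCm38) and promoters from RefSeq GRCm38.p6. The 2 replicates of a group differed by more than counting error (chi-square divided by its degrees of freedom, 4.08 for the Ctrl pair and 4.17 for the Ell3 KD pair) and were kept apart. Values in every library are given for the paralog pairs, Ccnc and Ell3, for the genes with the highest and lowest level per length in each module, and for up to 10 called genes per complex with the largest absolute log2 fold change at 5 CPM or more. From each companion list up to 3 called genes with the smallest p are given. Other members are named with fewer values. The members and lists were chosen with earlier results of these data known.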

Additional observations from a re-analysis of the deposited data

How the results depend on the processing

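Mediator counts stayed within 1.5 times of 13 higher and 7 lower under all alternatives except glmTreat, and those of Integrator (1 higher, 7 lower) except glmTreat and the fit without Ell3 KD replicate 1. Leaving out 1 library gave 10 to 13 and 5 to 7 for Mediator and 1 and 3 to 7 for Integrator. Over all genes tested, these fits called 2797 to 3482 higher and 2922 to 3439 lower, against 3770 and 3906 with all libraries. Against a change of at most 1.2-fold (edgeR glmTreat), 2 Mediator genes were higher and 0 lower, and 0 Integrator genes higher and 2 lower (2, 1, 0 and 3 at an unadjusted p under 0.05). Over all 17879 genes tested, glmTreat called 1240 higher and 1511 lower. No member reversed where it was called, and 4 of the 28 called members were called under all 13 alternatives. With the replicate block the counts were again 13, 7, 1 and 7 and no member changed its call. The labels share only a number, and replicate differences of Ctrl and Ell3 KD correlated at 0.029 over genes.

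Counts for the SOSS and PP2A list (1 higher, 3 lower) were 2 higher without the filter and with the replicate block, 3 with the offsets, 1 lower with DESeq2, 0 lower with glmTreat (1 at an unadjusted p under 0.05), and 1 to 2 higher and 1 to 2 lower without 1 library. Cleavage factors (3 and 6) had 1 higher by library totals, 5 with the offsets, 0 higher (1 unadjusted) and 3 lower with glmTreat, and 1 to 3 higher and 4 to 7 lower without 1 library. snRNA genes (6 and 4) had 0 and 0 with glmTreat (1 and 0 unadjusted) and 3 to 7 higher and 4 to 5 lower without 1 library. Immediate early genes (3 and 3) had 1 lower with glmTreat and 2 to 5 higher and 2 to 3 lower without 1 library. Over all genes, 3142 were called higher and 4557 lower by library totals, and 2765 and 2777 with DESeq2. The same counts were 4275 and 4089 without the filter, 3894 and 3987 with the replicate block and 4126 and 3336 with the offsets. The cause of the shifts in the list counts was not tested.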
